A study of Mus musculus with 4 samples.

Results

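Id2, Id3, Id4, Hes5 and Hopx were measured as 5 of the 383 genes of a MERFISH panel, and were taken by name as regulators linked to stemness in glia. MERFISH counts single RNA molecules in tissue by repeated rounds of imaging, so every count belongs to a segmented cell with a position. The study asked how astrocytes and their neighbours in the mouse striatum change with age, and these data are coronal sections holding the striatum of both hemispheres. There were 2 sections from young mice of 2 months and 2 from aged mice of 18 months, all of the C57BL/6NTac strain, with no other treatment or genotype named. The study's methods describe its replicates as biological, while the labels tie no section to a mouse, and the p-values measure the spread between these sections.

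Id proteins are helix-loop-helix proteins without a DNA-binding region. They pair with basic helix-loop-helix factors and keep them off DNA, and in the brain BMP signals raise Id genes in astrocytes, neural stem cells and vessels. Hes5 is a repressor switched on by Notch signalling through RBPJ, and Hopx is a homeodomain protein that does not bind DNA and that marks radial glia and some neural stem cells.

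The 4 sections held 281824 cells that passed the study's filter of at least 10 genes and 50 cubic micrometres, with median transcripts per cell of 400 and 325 in young 1 and young 2, and 215 and 293 in aged 1 and aged 2. Aged 1 was the shallowest section, and where leaving it out changed a call both values are given. Cells were named again here from markers, without any of the 5 genes, as 12 classes, and cells carrying markers of an unrelated class were left out. Of the kept cells, 55.0% were both named and unmixed. Levels below are a gene's transcripts per 10000 transcripts of its class in 1 section, and means ± SD are over all 4 sections, both ages together. Classes are called "-like" because the names are rebuilt.

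All 5 genes are protein coding. In GENCODE on the build GRCm38, Id2 lies on the minus strand of chromosome 12 from 25093799 to 25097140, and Id3 and Hes5 on the plus strand of chromosome 4, from 136143497 to 136145755 and from 154960923 to 154962371. Id4 lies on the plus strand of chromosome 13 from 48261228 to 48266026, and Hopx on the minus strand of chromosome 5 from 77086988 to 77115121. The files give gene symbols only, and the build behind the probes is not given in the sources used here. The promoters of Hes5, Id2 and Hopx are shown because these genes had the largest differences between astrocytes of different zones, Hopx in one direction and Hes5 and Id2 in the other. Each is the 250 bases before a RefSeq start on GRCm38.p6, read along the gene's strand, with capitals marking GTGGGAA on either strand, the sequence bound by RBPJ. Hes5 is 4:154960673-154960922 on the plus strand, Id2 is 12:25096093-25096342 on the minus strand, and Hopx is 5:77115124-77115373 on the minus strand, the first of 2 starts listed.
Hes5: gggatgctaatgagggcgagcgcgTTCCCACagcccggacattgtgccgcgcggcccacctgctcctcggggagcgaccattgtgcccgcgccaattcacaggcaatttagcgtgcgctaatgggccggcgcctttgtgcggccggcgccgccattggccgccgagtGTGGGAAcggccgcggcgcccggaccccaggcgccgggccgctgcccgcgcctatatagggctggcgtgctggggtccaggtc
Id2: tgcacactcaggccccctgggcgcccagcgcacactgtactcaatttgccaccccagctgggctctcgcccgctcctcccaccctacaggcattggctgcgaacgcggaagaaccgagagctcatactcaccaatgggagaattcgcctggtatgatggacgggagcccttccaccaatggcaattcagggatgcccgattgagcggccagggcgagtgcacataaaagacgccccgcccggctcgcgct
Hopx: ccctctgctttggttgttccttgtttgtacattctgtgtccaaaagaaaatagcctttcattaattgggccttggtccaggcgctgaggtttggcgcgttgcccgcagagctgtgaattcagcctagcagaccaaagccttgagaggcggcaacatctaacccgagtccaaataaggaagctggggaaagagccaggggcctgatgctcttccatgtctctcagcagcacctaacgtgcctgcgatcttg
The Hes5 window held 2 GTGGGAA matches, beginning 226 and 83 bases before the start, and the windows of Id2, Id3, Id4 and both Hopx starts held 0. Of 32851 promoter windows of the same length, 5.42% held the motif. GGCGCC, the core of elements that answer BMP through SMAD proteins, was found 4 times for Hes5, 1 time each for Id2 and Id4, and in 9.59% of all windows. A match describes letters and not a bound site.

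Id4, Id2, Hes5 and Hopx were high in astrocyte-like cells, and Id3 was as high in fibroblast-like and endothelial-like cells. Id2 ran at 64.6 and 62.7 transcripts per 10000 in astrocyte-like cells of young 1 and young 2, and at 80.2 and 69.5 in aged 1 and aged 2. The mean of 69.3 ± 7.88 was separated from the next class, fibroblast-like cells at 23.9 ± 6.33, with no overlap between sections. Below these came macrophage-like cells at 20.1 ± 6.14 and neuron-like cells at 18.8 ± 3.12. The neuron-like sections lay at 18.1, 16.8, 23.3 and 16.8, and overlapped with their neighbours in the order. Medium spiny neuron-like cells, the projection neurons of the striatum, had 5.49 ± 1.53 and oligodendrocyte-like cells the lowest mean at 3.96 ± 0.661. From fibroblast-like to mural-like cells every neighbouring pair of classes overlapped.

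Id3 was shared by astrocytes and the vessel wall. In astrocyte-like cells it ran at 32.9, 25.7, 21.4 and 33.8 transcripts per 10000 in young 1, young 2, aged 1 and aged 2. Endothelial-like cells, which line the vessels, had 27.0, 21.9, 18.2 and 31.8, and fibroblast-like cells of the borders and larger vessels had 39.3, 35.3, 18.9 and 27.5. These 3 classes overlapped, as did macrophage-like cells at 18.8 ± 4.17 and mural-like cells, the pericytes and smooth muscle cells, at 16.2 ± 4.03. The only gap in the order lay beneath mural-like cells, where ependymal-like cells followed at 7.70 ± 2.07. Neuron-like cells were lowest at 1.26 ± 0.228, and medium spiny neuron-like cells had 3.99 ± 1.31. In every one of these vascular and astrocyte classes the shallow aged 1 section was the lowest.

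Id4 led in the ventricle wall. Ependymal-like cells, the ciliated lining of the ventricle, had 247, 282, 252 and 246 transcripts per 10000 in young 1, young 2, aged 1 and aged 2. All lay above astrocyte-like cells as a whole class, at 191, 200, 227 and 215. Neuroblast-like cells, named from markers of migrating young neurons and of dividing progenitors together, had 113 ± 12.6. Medium spiny neuron-like cells followed at 103, 93.9, 90.6 and 91.2, a level that overlapped with neuroblast-like cells and lay above every other neuron or vascular class. Neuron-like cells outside the spiny class had 14.1 ± 0.956, endothelial-like cells 23.3 ± 4.85 and oligodendrocyte-like cells the lowest mean, 13.9 ± 2.64. Spiny neurons and other neurons thus lay far apart for Id4.

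Hes5 and Hopx were highest in astrocyte-like cells taken as a whole class. Hes5 ran at 12.7, 12.6, 8.84 and 13.3 transcripts per 10000 in astrocyte-like cells of young 1, young 2, aged 1 and aged 2. Oligodendrocyte precursor-like cells had 5.78, 7.66, 5.40 and 6.48, and oligodendrocyte-like cells had 4.25, 4.31, 3.05 and 3.21. These 3 classes did not overlap with each other or with the rest, where means ran from 0.469 ± 0.0821 in neuron-like cells to 1.14 ± 0.558 in ependymal-like cells. Hopx ran at 13.2, 16.0, 11.3 and 12.8 in astrocyte-like cells, above every section of every other class. Oligodendrocyte-like cells came next at 4.36 ± 1.88, and from there to neuron-like cells at 2.04 ± 0.165 each neighbouring pair overlapped. Medium spiny neuron-like cells were lowest at 0.819 ± 0.0233. The order did not hold in every zone of astrocyte-like cells, as set out below. Those of the striatum had Hopx at 2.28 to 4.39, overlapping with oligodendrocyte-like cells. Those of white matter had Hes5 at 2.31 to 3.20, below oligodendrocyte precursor-like cells.

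**Figure D1:**
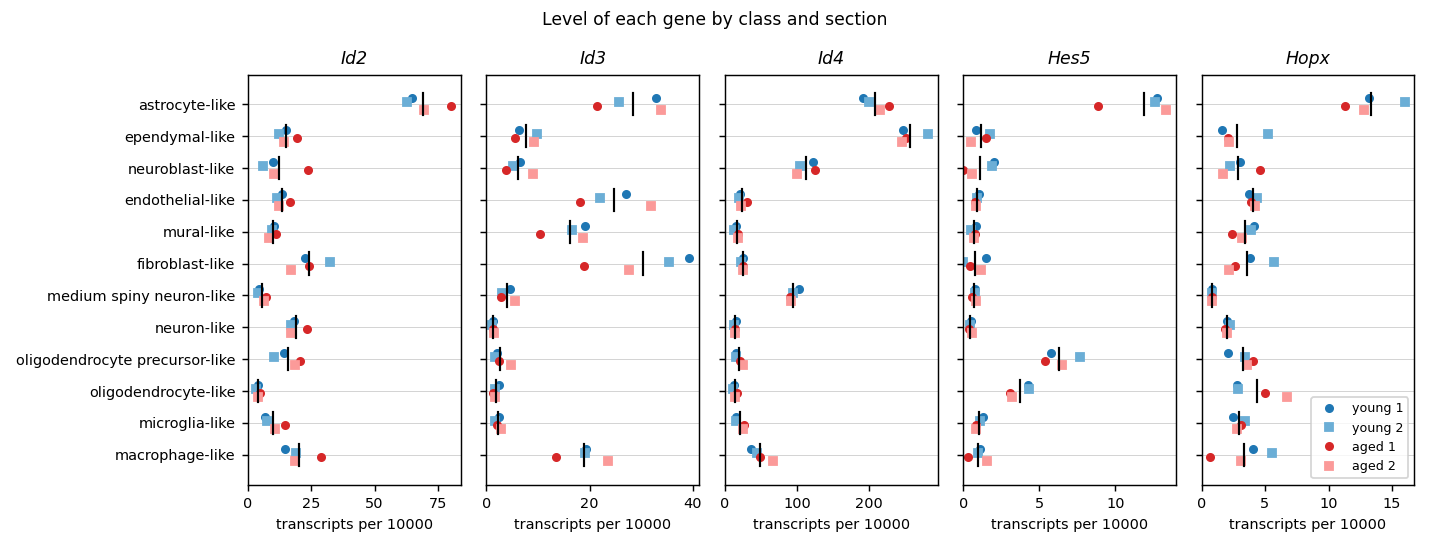
Level of each gene (x axis, transcripts per 10000 transcripts of the class, a scale per gene) in 12 classes (y axis). Points are the 4 sections and the black bar is their mean. Id2, Hes5 and Hopx are highest in astrocyte-like cells, Id4 in ependymal-like cells (mean 257), and Id3 overlaps between astrocyte-like, fibroblast-like and endothelial-like cells.

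Transcripts of a neighbouring cell can be assigned to a cell at its border, so each class was set against the level of 7 astrocyte markers in it. Medium spiny neuron-like cells held 1.59% of the astrocyte-like marker sum and 45.4% of the astrocyte-like Id4 level. Neuron-like cells held 2.33% of the marker sum and 27.1% of the Id2 level. Both shares are above that of the markers, and the part of neighbouring astrocytes in these levels was not tested.

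Endothelial-like cells held 6.87% of the marker sum and 86.8% of the Id3 level, and mural-like cells 4.05% and 57.0%. Oligodendrocyte precursor-like cells held 5.78% of the marker sum and 53.3% of the Hes5 level. In neuron-like and medium spiny neuron-like cells Hes5 stood at 3.95% and 6.21% of its astrocyte-like level, closer to those marker shares. Ependymal-like cells held 43.8% of the marker sum, with Id4 at 123%, Hes5 at 9.61% and Hopx at 20.8% of the astrocyte-like level. In the ventricle lining Id4 therefore stood above the astrocyte markers, and Hes5 and Hopx below them.

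At the level of single cells, each cell was thinned to 100 transcripts so that depth was equal, and shallower cells were left out, which kept 8585 of 15483 astrocyte-like and 40842 of 51679 neuron-like cells. Among thinned astrocyte-like cells 79.9% ± 2.03 had an Id4 transcript, 45.5% ± 3.68 Id2, 20.6% ± 3.71 Id3, 11.2% ± 1.21 Hopx and 10.7% ± 1.35 Hes5 (SD, n = 4 sections). Without thinning these shares were 74.5%, 47.6%, 23.1%, 13.9% and 13.5%. In neuron-like cells, a type that should lack Hes5, 0.453% ± 0.0823 of thinned cells and 1.74% ± 0.545 of all cells had a Hes5 transcript, at median depths of 218 to 352 transcripts against 99 to 142 in astrocyte-like cells. Id4 was found in 91.1% ± 2.06 of thinned ependymal-like cells and 51.8% ± 1.56 of thinned medium spiny neuron-like cells.

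The thinned cells also gave the number of the 5 genes detected in one cell. At least 2 of the 5 were found in 55.7%, 54.4%, 56.9% and 56.6% of thinned astrocyte-like cells of young 1, young 2, aged 1 and aged 2. The same share ran from 13.0% to 19.3% in ependymal-like cells, from 8.42% to 10.9% in endothelial-like cells and from 4.63% to 7.27% in medium spiny neuron-like cells. No section of another of these classes reached the astrocyte-like range. A share of this kind rises with the shares of the single genes. Whether the genes met in one cell more often than those shares would give was not tested.

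Across the 48 combinations of class and section, which share libraries and depth within a section, the panel genes closest to each member differed. The level of Id2 was most like that of Slc6a11, a GABA transporter of astrocytes (Pearson r = 0.83), then Rorb and F3. Id3 was closest to the adhesion gene Vcam1 (r = 0.86), followed by Timp3 and Itih5. Id4 was closest to Cbs, Ezr and Sox9 (r = 0.81, 0.80 and 0.80), Hes5 to Il18, Fjx1 and Olig1 (r = 0.67, 0.65 and 0.65) and Hopx to Dio2, Slc6a11 and Plpp3 (r = 0.74, 0.73 and 0.69). Among the members themselves r was highest for Id2 with Hopx at 0.52 and lowest for Id3 with Hes5 at 0.0076.

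Within astrocyte-like cells the 5 genes divided by place. The ventricle wall zone was set as within 100 micrometres of at least 3 ependymal-like cells (741 cells), the striatum as places where medium spiny neuron-like cells made up at least 40% of neighbours more than 300 micrometres from the lining (2354 cells), and white matter as places where oligodendrocyte-like cells made up at least 40% (600 cells). The question was whether the genes linked to stem cells differ at the wall, the adult stem cell niche. Hopx ran at 3.50, 4.39, 4.29 and 2.28 transcripts per 10000 in striatal astrocytes of young 1, young 2, aged 1 and aged 2, and at 28.6, 28.5, 26.7 and 33.6 in astrocytes of the wall. Every wall section lay above every striatal section, in a log2 fold-change of 2.80 ± 0.22 (SE), or 6.99-fold (edgeR quasi-likelihood, sections as blocks, adjusted p = 5.76e-08). The wall sums held 61, 58, 34 and 50 Hopx transcripts and the striatal sums 39, 37, 31 and 19.

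Id2 and Hes5 were lower at the wall than in the striatum. Id2 ran at 72.3, 73.0, 90.7 and 84.4 in the striatum and at 29.6, 17.7, 42.4 and 20.9 at the wall, and the zones did not overlap (log2 -1.81 ± 0.19, adjusted p = 9.96e-07). Hes5 ran at 18.8, 22.8, 16.8 and 24.9 in the striatum and at 6.10, 9.83, 7.86 and 11.4 at the wall, again without overlap (log2 -1.49 ± 0.21, adjusted p = 2.61e-05). Hes5 and Hopx thus ran in opposite directions between the same zones.

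Id3 ran at 31.5, 26.6, 33.4 and 42.3 in the striatum and at 22.5, 23.6, 17.3 and 41.0 at the wall, where the zones overlapped. It passed the test at a log2 of -0.60 ± 0.19 (adjusted p = 0.0171), but not without TMM (-0.38, adjusted p = 0.112), without young 1 (adjusted p = 0.0619) or without aged 1 (adjusted p = 0.0735). Id4 ran at 202, 216, 278 and 270 in the striatum and at 300.2, 331, 307 and 299 at the wall, and the zones did not overlap. Its log2 fold-change of 0.15 ± 0.11 did not pass with TMM (adjusted p = 0.298) and did without (0.37, adjusted p = 0.00301). Leaving out TMM moved the median of all genes tested by 0.22 in this comparison.

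In all, 4 of the 5 genes passed at the wall, 1 higher and 3 lower, where 47.7% of the 264 panel genes tested passed, 25% higher and 22.7% lower. The share of the panel was thus large, and the directions of single genes carry the description. Wall astrocytes were shallower, with median transcripts of 48.5 to 103 per cell in the sections against 103.5 to 156 in the striatum, and held 30.7 to 72.3 transcripts per 10000 of the neuroblast markers against 17.6 to 22.2, with 4 of the 5 neuroblast markers higher without overlap. No marker of that list was at 0 in every wall section, and the share of all panel genes without overlap between the zones was not counted. A subset had no neuroblast or dividing progenitor marker and none of the ependymal markers Rsph9, Nme9 and Riiad1 detected. The ependymal marker Tubb4b was not used for it. It held 82, 82, 147 and 130 cells per section at the wall. Hopx there was at 30.0, 31.6, 25.3 and 46.4, near or above the levels of all wall astrocytes. The log2 difference from striatal cells chosen the same way was 3.19. At these depths a marker can be present and go undetected. Ependymal-like and neuroblast-like cells themselves had Hopx means of 2.77 ± 1.64 and 2.90 ± 1.26, below the wall astrocytes. The part of depth and of neighbouring cells in the wall differences was not tested further.

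In white matter Hopx was again higher and Hes5 lower than in the striatum. Hes5 ran at 3.20, 2.31, 2.55 and 2.82 transcripts per 10000 in young 1, young 2, aged 1 and aged 2, from 7, 3, 6 and 7 transcripts, all below the striatal sections (log2 -2.70 ± 0.28, 6.50-fold lower, adjusted p = 4.79e-07). Hopx ran at 11.4, 23.9, 14.4 and 16.9, all above the striatum (log2 2.36 ± 0.25, 5.15-fold, adjusted p = 5.51e-07). These levels overlapped with the 11.9 to 17.3 of astrocyte-like cells outside wall, striatum and white matter. Id2 ran at 51.3, 47.1, 39.9 and 46.0 and was lower without overlap (log2 -0.61 ± 0.15, adjusted p = 0.00259).

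Id3 in white matter ran at 58.6, 47.1, 27.6 and 35.5, higher than the striatum in both young sections and lower in both aged ones, and did not pass (log2 0.49 ± 0.21, adjusted p = 0.0570). It did pass without aged 1 (0.59, adjusted p = 0.0354) and without aged 2 (0.60, adjusted p = 0.0148). Id4 ran at 206, 222, 212 and 221, within the striatal range (log2 0.03 ± 0.11, adjusted p = 0.852). Of the 5 genes 3 passed, 1 higher and 2 lower, against 51% of 253 panel genes, 24.5% higher and 26.5% lower, so the count itself was not far from the panel's. The oligodendrocyte markers summed to 59.7 to 89.5 transcripts per 10000 in white matter astrocytes and to 18.9 to 27.9 in striatal ones. Of these markers 4 of 6 were higher without overlap, where the share of all panel genes was not counted. The part of these markers in the differences was not tested. Leaving out TMM moved the median of all genes by -0.19 here.

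**Figure D2:**
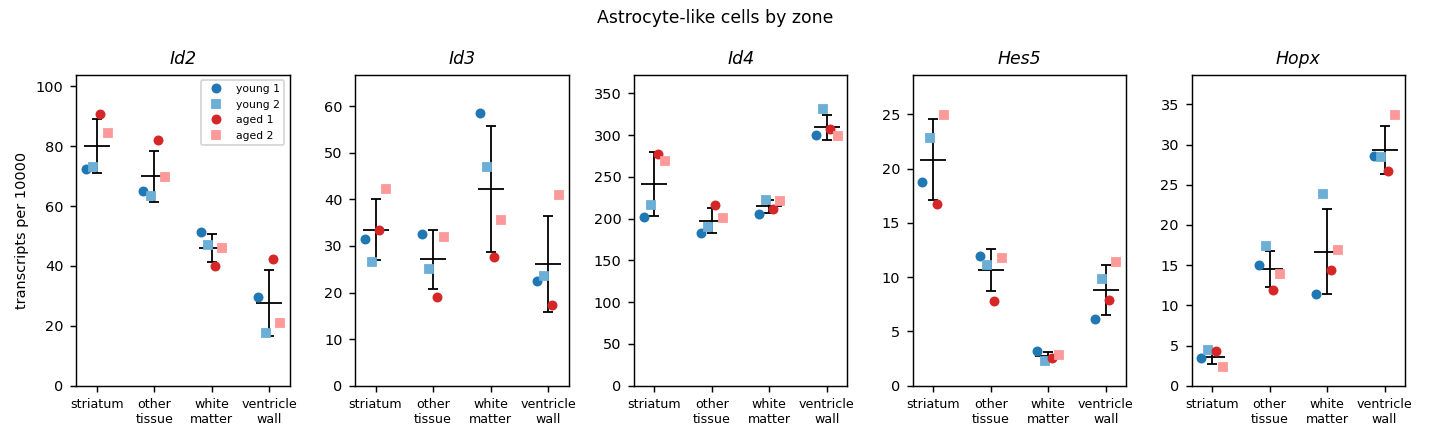
Level of each gene (y axis, transcripts per 10000, a scale per gene) in astrocyte-like cells of 4 zones (x axis). Points are the 4 sections, and the bars are their mean and SD. Hopx is lowest in the striatum (2.28 to 4.39) and highest at the ventricle wall (26.7 to 33.6), Id2 and Hes5 are highest in the striatum, and Hes5 is lowest in white matter (2.31 to 3.20).

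Distance to the nearest ependymal-like cell showed the levels in finer steps. Id4 in astrocyte-like cells had a mean of 324 ± 6.68 within 25 micrometres and of 200.2 ± 21.7 beyond 800 micrometres, and Id2 had 29.4 ± 7.32 and 76.3 ± 11.1. Hes5 had 7.12 ± 0.925 and 13.3 ± 2.35. Hopx did not peak in the bin next to the lining, at 19.9 ± 5.36, but at 29.3 ± 8.49 between 50 and 100 micrometres, and ended at 10.4 ± 2.02. These neighbouring bins overlapped within their SD. Id3 stayed between 27.3 and 35.1 at all distances. The bins are a description with no test, and hold between 49 and 1684 cells in their smallest section.

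**Figure D3:**
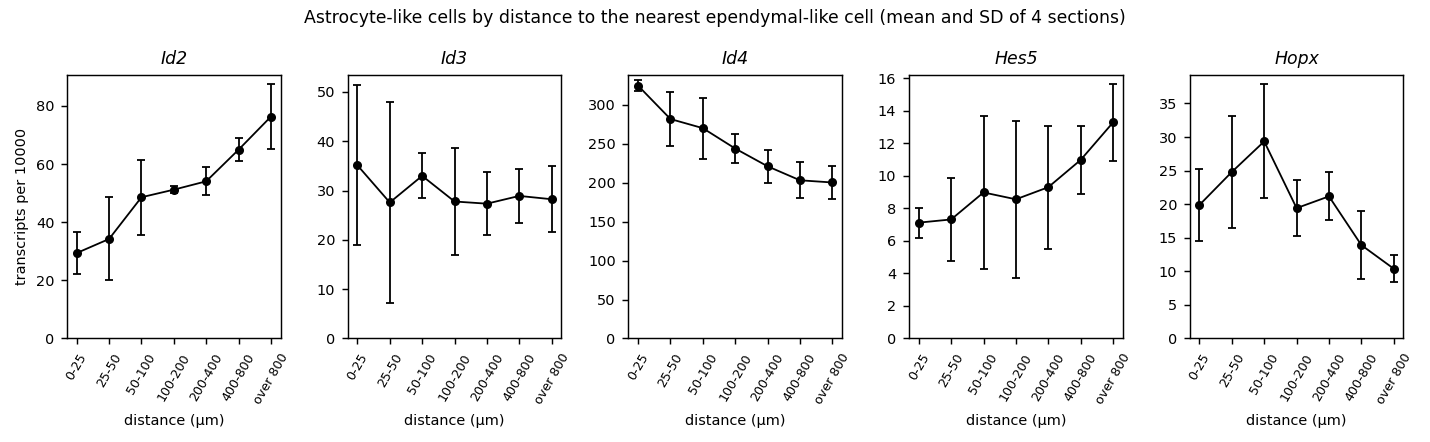
Mean level (y axis, transcripts per 10000) of each gene in astrocyte-like cells against distance to the nearest ependymal-like cell (x axis, micrometres, in 7 bins). Points are means and bars the SD of the 4 sections. Id4 is highest next to the lining (324 against 200.2 in the last bin), Id2 and Hes5 are highest in the last bin, and Hopx is highest between 50 and 100 micrometres.

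The other genes of these pathways on the panel were grouped as signals, cell cycle genes and genes of stem cells and radial glia. At the wall 4 of 8 signal genes passed against striatal astrocytes, near the 47.7% of the panel. Nbl1, a secreted BMP antagonist, and Stat3, the cytokine-activated factor, were higher (log2 0.79 ± 0.31 and 0.53 ± 0.18), and the Wnt receptor Fzd2 and Ncstn, a part of the enzyme that cleaves Notch, were lower (-1.25 ± 0.18 and -0.74 ± 0.28). Of the 5 cell cycle genes 2 could be tested, and Ccnd2, a cyclin of progenitors, was higher (0.99 ± 0.22). Of 6 stem and radial glia genes 3 passed, again near the panel's share, with Thbs4 and Vim higher (6.21 ± 0.24 and 3.11 ± 0.22) and Ptprz1 lower (-0.46 ± 0.09).

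Thbs4, a secreted matrix protein of wall astrocytes, and Vim, an intermediate filament, were higher with Hopx in white matter too. There Thbs4 differed by a log2 of 8.05 ± 0.19 and Vim by 3.73 ± 0.22, and Fabp7, a lipid carrier of radial glia, was lower (-1.33 ± 0.42). Of the 6 stem and radial glia genes 3 passed in white matter and of the 8 signals 3, where 51% of the panel passed. The signals were Tgfb3 higher (1.11 ± 0.30) and Fgf2 and Fzd2 lower (-0.94 ± 0.29 and -0.63 ± 0.16). The striatal sums held only 16, 7, 11 and 4 Thbs4 transcripts.

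From 2 to 18 months no member passed in astrocyte-like cells. On the levels given above, Id2 had a log2 fold-change of 0.20 ± 0.16 (adjusted p = 0.684), Id3 -0.12 ± 0.18 (adjusted p = 0.875) and Id4 0.14 ± 0.13 (adjusted p = 0.732). The Id2 and Id4 levels of both aged sections lay above those of both young ones, and the Id3 levels overlapped between ages. Hes5 had -0.23 ± 0.22 (adjusted p = 0.755) and Hopx -0.31 ± 0.22 (adjusted p = 0.666). Both aged sections lay below both young ones for Hopx, and for Hes5 the ages overlapped, with aged 1 lowest. Here and below, a separation of ages in 2 against 2 sections cannot reach a two-sided exact permutation p under 0.333. The share of panel genes separated in this way was not counted, so these separations are description only. By edgeR 0 of 5 passed, 0 had an unadjusted p under 0.05, and DESeq2 and limma called 0 as well, where 0.538% of the 372 panel genes passed.

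In striatal astrocytes Id4 was 202 and 216 in young 1 and young 2 and 278 and 270 in aged 1 and aged 2, without overlap. Its log2 fold-change of 0.33 ± 0.11 had an unadjusted p of 0.0115 and an adjusted p of 0.278. Id2, at 72.3 and 73.0 against 90.7 and 84.4, also did not overlap between ages, with a log2 of 0.21 ± 0.16 (adjusted p = 0.631). Id3 had 0.32 ± 0.22, Hes5 -0.05 ± 0.25 and Hopx -0.33 ± 0.35, with adjusted p from 0.631 to 0.951. By edgeR 0 of 5 passed, against 0 of 263 panel genes (0%), with 1 member, Id4, and 35 panel genes at an unadjusted p under 0.05, and DESeq2 and limma called 0 of the 5.

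Scaled to cell volume in place of transcripts, the median of all genes was lower by 0.39 in aged astrocyte-like cells than with the transcript scale. On that scale Id2 and Id4 were at -0.21 and -0.25 in astrocyte-like cells, and at -0.19 and -0.07 in striatal ones, so the direction of both depended on the scale.

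Over all 12 classes 55 of 60 pairs of a member and a class held enough counts to be tested, and 1 passed, where 3.51% of all 3929 tests passed. Hes5 was untested in ependymal-like, neuroblast-like, fibroblast-like and macrophage-like cells and Hopx in ependymal-like cells. At an unadjusted p under 0.05 there were 6. DESeq2 and limma each called 1.

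Outside oligodendrocyte-like cells 0 of 50 passed by edgeR, DESeq2 or limma, with 4 at an unadjusted p under 0.05. Id2 lay above 0 in 10 of 12 classes, from -0.34 in fibroblast-like to 0.87 in neuroblast-like cells, with adjusted p from 0.128 to 0.968. Id3 ranged from -0.63 to 0.85 and Id4 from -0.20 to 0.49. Hes5 lay below 0 in 7 of its 8 tested classes, from -0.68 to 0.09, and Hopx ran from -1.28 in macrophage-like cells up to the call in oligodendrocyte-like cells. All classes come from the same 4 sections, so a direction shared by classes is not replication. The share of panel genes with as many classes on one side was not counted.

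In the classes of the ventricle wall, the vessels and the neurons no member passed between ages with all 4 sections. Id4 had a log2 fold-change of -0.11 ± 0.18 in ependymal-like cells (adjusted p = 0.781) and -0.20 ± 0.26 in neuroblast-like cells (adjusted p = 0.652). Id3 had 0.01 ± 0.26 in endothelial-like cells (adjusted p = 0.991) and -0.29 ± 0.23 in mural-like cells (adjusted p = 0.585). Without aged 2, Id3 in mural-like cells passed at -0.81 (adjusted p = 0.0461) and Id2 in neuroblast-like cells, at 0.87 ± 0.40 with all sections (adjusted p = 0.128), passed at 1.37 (adjusted p = 0.0238).

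Among neurons Id2 had 0.72 ± 0.22 in medium spiny neuron-like cells, from 4.40, 3.995, 7.14 and 6.44 transcripts per 10000, where the ages did not overlap and the adjusted p was 0.480 (unadjusted p = 0.00915). It passed in a fit with crossed replicate numbers as a block, added after seeing the data (0.72, adjusted p = 0.0190). In this class 0% of the panel passed. In neuron-like cells Id2 had 0.20 ± 0.20 (adjusted p = 0.846), and Id4 had -0.09 ± 0.13 in medium spiny neuron-like cells (adjusted p = 0.912).

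Aged 1 often lay at an extreme of these values, and the part of depth was not tested. Aged 1, the shallowest, had the highest Id2 of the 4 sections in 11 of 12 classes, and the lowest Id3 and the lowest Hes5 in 9 of 12 each. Aged 2 had the highest Id3 in 8. Id2 was lowest in young 2 in 7 classes and in young 1, the deepest, in 2. Without aged 1 the age differences in astrocyte-like cells were 0.06 for Id2, 0.14 for Id3, 0.07 for Id4, 0.01 for Hes5 and -0.25 for Hopx, none past the threshold.

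**Figure D4:**
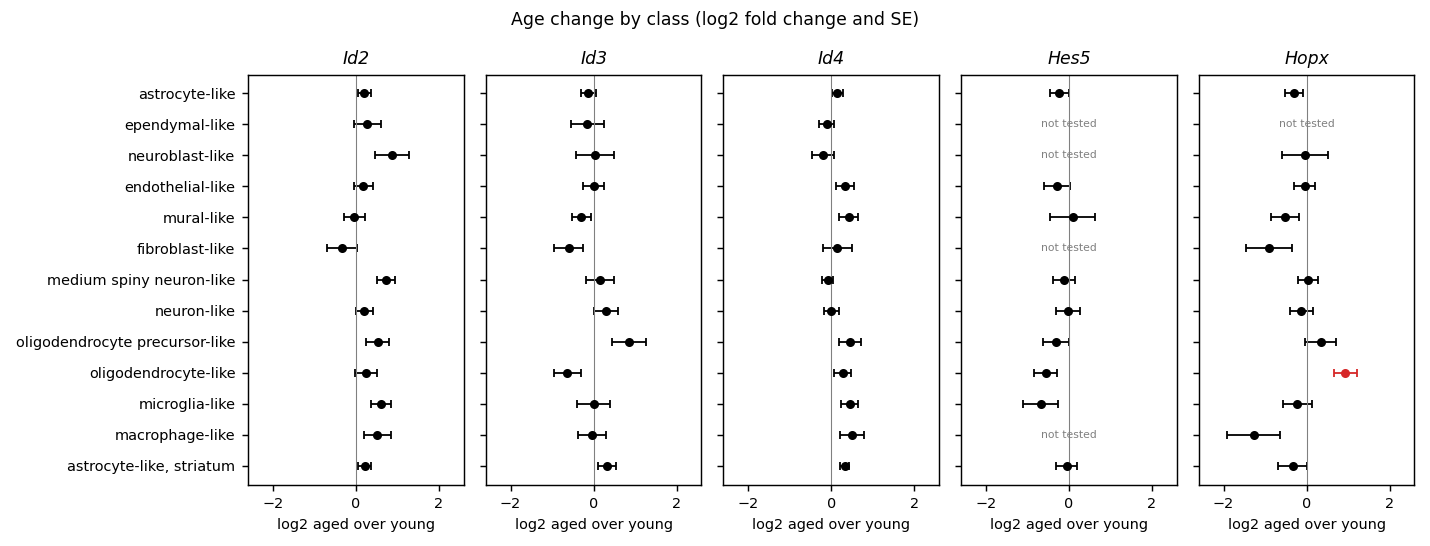
Log2 fold-change of aged over young sections (x axis) with its SE for each gene in 12 classes and in astrocyte-like cells of the striatum (y axis). The red point is the one that passed, Hopx in oligodendrocyte-like cells at 0.94, and the grey words mark classes with too few counts.

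The pair that passed was Hopx in oligodendrocyte-like cells, the myelinating glia. It ran at 2.81 and 2.91 transcripts per 10000 in young 1 and young 2, and at 4.98 and 6.75 in aged 1 and aged 2, from 186, 191, 349 and 553 transcripts. Both aged sections lay above both young ones, in a log2 fold-change of 0.94 ± 0.27, or 1.91-fold (adjusted p = 0.0117), where 9.76% of 379 panel genes passed and 4.75% passed as higher. The rise stood out in white matter, at 2.75, 3.07, 6.15 and 8.78 (log2 1.38, adjusted p = 0.00384), and outside it the levels were 2.85, 2.79, 3.86 and 4.62 (0.42, adjusted p = 0.354). The difference between these places was not tested.

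The astrocyte markers stood higher in the same sections, with a sum over the list of 7 of 42.6, 43.6, 74.2 and 56.3 per 10000 in oligodendrocyte-like cells. Of the 7, 5 were higher and 1 lower without overlap between ages, where the share of all panel genes was not counted. None was at 0 in every section. Between the aged sections the marker sum was higher in aged 1 and Hopx in aged 2, an order that 2 sections are too few to read. In oligodendrocyte-like cells without any astrocyte marker detected, Hopx ran at 2.00, 2.18, 3.61 and 4.95, still higher in both aged sections, with a log2 of 0.91 (adjusted p = 0.0655). The part of neighbouring astrocytes in the rise was not tested further. The share of cells with a Hopx transcript after thinning was 3.03%, 3.13%, 3.76% and 5.68%, with a two-sided exact permutation p of 0.333, the smallest that 2 against 2 sections can give.

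The call was lost without young 1 (log2 0.89, adjusted p = 0.0958), without aged 1 (1.17, adjusted p = 0.0895) and without aged 2 (0.74, adjusted p = 0.224). It was also lost with mixed cells kept (0.59, adjusted p = 0.174) and on the volume scale (0.45, adjusted p = 0.349), where the direction was kept.

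**Figure D5:**
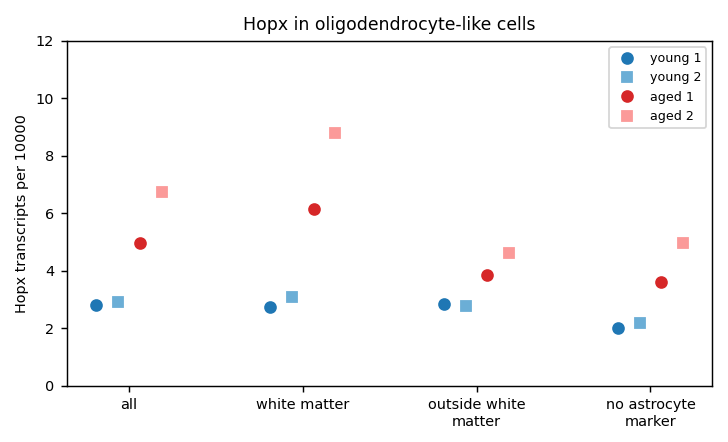
Hopx level (y axis, transcripts per 10000) in oligodendrocyte-like cells of each section, for all cells, cells of the white matter, cells outside it, and cells with no astrocyte marker detected (x axis). The aged sections lie above the young ones in each set, from 3.61 upward against 2.00 to 3.07, and the widest gap is in white matter.

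The age change of Hopx in astrocyte-like cells differed from that in oligodendrocyte-like cells. The test of the difference itself, astrocyte-like minus oligodendrocyte-like, gave a log2 of -1.27 ± 0.19 (adjusted p = 0.00344), and -1.42 without aged 1 (adjusted p = 0.0806). Of 55 such tests of a member in astrocyte-like cells against another class this was the 1 that passed, where 2.67% of all 4163 passed, and 6.79% of the 383 against oligodendrocyte-like cells.

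The pathway lists showed few age changes in the same cells. In astrocyte-like cells 0 of the 19 genes passed by edgeR, where 0.538% of the panel did, and in those of the striatum 0 of the 16 that could be tested, where 0% did. At an unadjusted p under 0.05 there were 4 and 6, and DESeq2 and limma called 0 in both. In oligodendrocyte-like cells 1 of 5 cell cycle genes and 1 of 6 stem and radial glia genes passed, where 9.76% of the panel did. Cdkn1a, a cell cycle inhibitor, and Vim rose there (log2 1.05 ± 0.36 and 0.85 ± 0.27). In ependymal-like cells, the class with the highest Id4, Ccnd2 and Thbs4 fell (-1.09 ± 0.21 and -0.97 ± 0.30) and Vim rose (0.60 ± 0.18), where 8.37% of the panel passed. In neuroblast-like cells Ccnd2, Fabp7, Pou3f2, a neural fate factor, and Fzd2 fell, by 0.73 to 1.62 on the log2 scale, where 18.6% passed. In oligodendrocyte precursor-like cells, where Hes5 was second highest, Thbs4 fell (-1.47 ± 0.42), where 7.14% passed.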

How the data were processed

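The members, lists and tests were chosen with earlier results of these data known. The authors imaged and decoded the sections with MERLIN and segmented cells with the imaging system's software, and deposited whole-number counts of transcripts per gene and cell. The cell volume signal, in cubic micrometres, and cell positions were deposited with them. Cells with at least 10 genes and 50 cubic micrometres were kept (68011 to 74624 per section), and clustered (igraph 0.11.9) on 359 genes, without the 5 members and 19 pathway genes. Clusters were named by fixed marker lists. Cells with at least 3 markers of their own class and at least 3 of an unrelated class were left out. Neuroblast markers were allowed in neurons and oligodendrocyte precursors, and neuron markers in neuroblasts. Few cells of a class with a short marker list were left out by this rule (2016 of 2029 fibroblast-like cells stayed). Doublets had no other treatment. Counts were summed per class and section, the replicate, and tested with edgeR 4.0.16 (quasi-likelihood, TMM, filterByExpr), with Benjamini-Hochberg adjustment over all genes tested and a threshold of 0.05. DESeq2 1.42.0 and limma 3.58.1, other scales, filters and clusterings, and leaving out each section were alternatives. The tests were tested on simulated data. All 5 members were named in every class, and like genes were the 3 with the highest correlation. Totals of kept transcripts were 18765491 to 36035355 per section. The study states a smaller number of MERFISH cells. Here whole sections were used.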

Additional observations from a re-analysis of the deposited data

Results flagged for a closer look

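The age change of Hopx differed between astrocyte-like and oligodendrocyte-like cells by -1.27 ± 0.19 on the log2 scale in a direct test (edgeR, adjusted p = 0.00344), which is why it is listed. Hopx levels were 13.2, 16.0, 11.3 and 12.8 transcripts per 10000 in astrocyte-like cells and 2.81, 2.91, 4.98 and 6.75 in oligodendrocyte-like cells of young 1, young 2, aged 1 and aged 2. Without aged 1 the difference was -1.42 with an adjusted p of 0.0806.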

How the results depend on the processing

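Over the 12 classes the number of members that passed between ages, 1 as reported, was 2 without TMM (Id2 in microglia-like cells added), 3 on the volume scale (Id3 and Hes5 in oligodendrocyte-like and Id4 in ependymal-like cells, all lower, where the median of all genes moved by -0.52 and -0.54), and 0 with mixed cells kept, for oligodendrocyte-like cells with no astrocyte marker, and for those outside the white matter. It ran from 0 to 2 when 1 section was left out. The 2, without aged 2, were Id3 in mural-like and Id2 in neuroblast-like cells, and Hopx in oligodendrocyte-like cells was not among them. The replicate numbers did not pair the sections (same-numbered sections' deviations correlated from -0.42 to 0.036), and with the replicate block the count was 0, with Hopx in oligodendrocyte-like cells at 0.91 (adjusted p = 0.194). With crossed numbers, a fit added after seeing the data, it was 1, a different pair (Id2 in medium spiny neuron-like cells in place of Hopx in oligodendrocyte-like cells), and 0 in striatal astrocytes. The count of age changes that differed from those of astrocyte-like cells, 1 as reported, was 2 without TMM and 3 with mixed cells kept, and ran from 0 to 1 when 1 section was left out. The calls at the wall and in white matter, 4 and 3, ran from 3 to 4 each when 1 section was left out. On the volume scale the age change turned to -0.21 for Id2 and -0.25 for Id4 in astrocyte-like cells, and to -0.19, -0.07 and -0.07 for Id2, Id3 and Id4 in the striatum. Id3 in astrocyte-like cells was 0.02 with coarse clusters and -0.49 to 0.14 without 1 section, and Hes5 -0.55 to 0.01. In the striatum Hes5 was 0.01 without TMM, 0.02 with mixed cells, and -0.34 to 0.20 without 1 section, and Hopx -0.85 to 0.10. Id4 in white matter was -0.13 by DESeq2, -0.16 without TMM and -0.11 to 0.03 without 1 section. None of these reversed values was past the threshold. The astrocyte-like level over the median of the other classes, 5.22, 4.93, 9.07, 12.8 and 4.56 for Id2, Id3, Id4, Hes5 and Hopx, was 4.01, 2.94, 5.73, 8.2 and 3.62 with mixed cells kept, and 10.9, 10.6, 10.7 and 4.21 for Id3, Id4, Hes5 and Hopx with coarse clusters. The causes were not tested. Depth limits the low levels most: white matter astrocytes held 3 to 7 Hes5 transcripts per section.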
